A study of Mus musculus with 31 samples.

Results

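Control mice of line 3 were compared with Control mice of line 1, the mice of the 2 colonies that were not labelled as overexpressing the human gene CYFIP1. CYFIP proteins sit in the WAVE complex, which drives branching of actin filaments, and also bind FMRP, an RNA-binding protein that represses translation at synapses. The basolateral amygdala (BLA) is a region of the amygdala that stores fear memories. It holds mostly glutamatergic principal neurons and a smaller number of GABAergic interneurons, and it lies next to the striatum, the central amygdala and the intercalated GABAergic cell masses. A line descends from 1 founder that received a human CYFIP1 bacterial artificial chromosome. Mice of 2 lines can therefore differ in litters, housing and inherited variants before any effect of the transgene is asked for. This comparison describes how far the sampled Control mice of the 2 lines stood apart.

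RNA was read by QuantSeq, which sequences the 3′ end of polyadenylated transcripts, in tissue punched from both hemispheres and pooled for each mouse. The 16 Control mice, out of 31 mice in the series, were chosen by their genotype label, and all 17666 genes with at least 10 reads in 4 or more of them were taken out of 48709 genes in the tables. The labels give 8 Control mice of line 3, aged 58 to 60 days, and 8 Control mice of line 1, aged 59 to 61 days, with 4 males and 4 females in each. They were bred on C57BL/6N. The other mice, which carry the human gene, were 8 CYFIP OE mice of line 3 and 7 of line 1. Those of line 3 were aged 58 to 64 days and those of line 1 59 to 77 days. They are used below for a separate measure of the line difference, in which line and age are mixed. The labels call the lines 1 and 3, and the number 3 is not a line name in the study's text. Mouse names share prefixes, called name groups here. In line 1 the Control mice came from X426.B (7 mice) and X429.A (1 mouse), and in line 3 from X424.C (3), SMC12.C (2), X605B.A (2) and X605A.A (1). No name group held Control mice of both lines, so line and name group cannot be told apart. The X426.B mice were all 61 days old and no line 3 Control mouse was, so age and line can hardly be told apart either. Whether a name group is a litter is not given in the sources used here.

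Total counts ranged from 6422037 to 8685308 per mouse in line 3 and from 6904021 to 8627177 in line 1, and the difference of the means was 38365 counts (two-sided exact permutation test, p = 0.916). The sex labels matched the data: Xist, the RNA that silences an X chromosome in females, stayed at or below 3.54 CPM (normalized counts on a common scale) in the 8 males and reached 56.1 or more in the 8 females, while Ddx3y, a gene of the Y chromosome, did not exceed 1.01 CPM in females and started at 35.2 in males. By the correlation of each mouse's profile with those of the others, 1 of the 16 mice, X424.C1 of line 3, stood apart (connectivity Z-score -2.37). The mean correlation of log2 CPM between mice was 0.927 within line 1, 0.908 within line 3 and 0.916 between the lines. Genes varied more among line 3 mice, with a median SD of log2 CPM of 0.49 in line 3 and 0.42 in line 1. Without the X424.C mice the line 3 value was 0.44 (n = 5). The summed level of 12 markers of BLA principal neurons was 1861 to 4234 CPM in line 3 and 1881 to 4355 CPM in line 1, but broadly expressed genes such as Camk2a and Nrgn make up most of it, and single markers were uneven. Slc17a7, the vesicular transporter of these glutamatergic neurons, was at 3.04 CPM in X426.B2 and 26.2 CPM in X426.B6, both of line 1, against 70.3 to 465 CPM in the other 14 Control mice. Neurod6 and Tbr1, transcription factors of the same neurons, were also lowest in X426.B2 (0.351 and 1.64 CPM) and X426.B6 (2.46 and 2.69 CPM). These 2 mice were therefore left out in an alternative chosen after the values were seen.

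After adjustment for 17666 tests, 0 genes differed between the lines at an adjusted p under 0.05 (0% of genes, edgeR quasi-likelihood test with sex as a covariate, smallest adjusted p = 0.639). At the study's unadjusted p under 0.005 there were 121 genes (0.685%), where evenly spread p-values would give 88.3. Of these 83 were higher in line 3 (0.47% of genes) and 38 were lower (0.215%), and 107 were protein coding. Their absolute log2 differences ran from 0.34 to 3.47, with a median of 0.66, and the median log2 difference over all genes was 0.01. At an unadjusted p under 0.05 there were 1073 genes (6.07%) of which 644 were higher in line 3. The same counts tested with DESeq2 gave 16 genes at an adjusted p under 0.05. Through its own filters DESeq2 gave no adjusted p for 13701 of the 17666 genes. Its adjustment thus covered fewer genes than that of edgeR, and those 13701 could not be called by it. Below, counts of genes under a threshold use the unadjusted p of edgeR. For single genes, the log2 differences (line 3 minus line 1) and standard errors are from edgeR, and the exact permutation p is two-sided and unadjusted. It compares mean log2 CPM over all 12870 divisions of the 16 mice, without sex, and cannot be smaller than 0.000155, so a gene may pass a threshold in only 1 of the tests. No gene passed the adjusted threshold in edgeR, so the values describe these 16 mice.

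Cpne4 had the smallest p of all genes in edgeR. It encodes a copine, a calcium-dependent membrane-binding protein, and lies on chromosome 9 at 104547286 to 105034544 of GRCm38. Its level was 16.7 to 45.4 CPM in line 3 (median 37.6) and 12.8 to 27.0 CPM in line 1 (median 17.6). Of the 8 line 3 mice, 7 lay above the line 1 mean and the groups overlapped. The log2 difference was 0.94 (standard error 0.19, adjusted p = 0.639 in edgeR, exact permutation p = 0.00218).

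Next among the genes higher in line 3 were Synj1, ENSMUSG00000109836, Efhd2 and Gabbr2. Synj1 (chromosome 16, 90936092 to 91011308) encodes synaptojanin 1, a lipid phosphatase needed for recycling synaptic vesicles. It was at 207 to 350 CPM in line 3 (median 284) and 191 to 245 CPM in line 1 (median 198), a log2 difference of 0.46 (standard error 0.10, exact permutation p = 0.000622). Gabbr2 (chromosome 4, 46662305 to 46991873), a subunit of the metabotropic GABA-B receptor, was at 38.6 to 70.2 CPM in line 3 (median 59.7) and 23.2 to 47.0 CPM in line 1 (median 37.9), a log2 difference of 0.63 (standard error 0.15, exact permutation p = 0.00249). Efhd2, a calcium-binding protein that acts on actin, was at 73.7 to 129 CPM against 58.6 to 99.3 CPM (log2 difference 0.54, standard error 0.13, exact permutation p = 0.00186). For Synj1, Gabbr2 and Efhd2 all 8 line 3 mice lay above the line 1 mean, while the lowest line 3 mouse lay within the range of line 1. ENSMUSG00000109836, for which no name or position was found in the annotation, was at 6.80 to 17.2 CPM in line 3 and 4.93 to 10.8 CPM in line 1 (log2 difference 0.87, standard error 0.21, exact permutation p = 0.00171).

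Among genes lower in line 3, the smallest p in edgeR belonged to 1600020E01Rik, an antisense RNA on chromosome 6 (86526247 to 86582466, plus strand) whose span covers Pcbp1 on the other strand. Its level was 4.36 to 8.30 CPM in line 3 (median 5.11) and 6.50 to 13.9 CPM in line 1 (median 9.53), with a log2 difference of -0.87 (standard error 0.19, exact permutation p = 0.000311). Whether the counting used strand is not given in the sources used here, so its reads may include some from Pcbp1. Zbtb48, a zinc finger protein that binds telomeres (chromosome 4, 152019774 to 152027671), was at 1.05 to 2.59 CPM in line 3 and 2.69 to 7.84 CPM in line 1, and the groups did not overlap (log2 difference -1.31, standard error 0.31, exact permutation p = 0.000155). Tnip1, an inhibitor of NF-kappaB signalling (chromosome 11, 54910785 to 54962917), was at 6.92 to 11.9 CPM in line 3 (median 10.5) and 13.2 to 20.2 CPM in line 1 (median 14.7). Its groups did not overlap either, and the log2 difference was -0.61 (standard error 0.15, exact permutation p = 0.000155). Gm5431, a predicted gene on chromosome 11, was at 2.01 to 4.93 CPM against 3.25 to 9.24 CPM (log2 difference -0.92, exact permutation p = 0.00186).

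**Figure D1:**
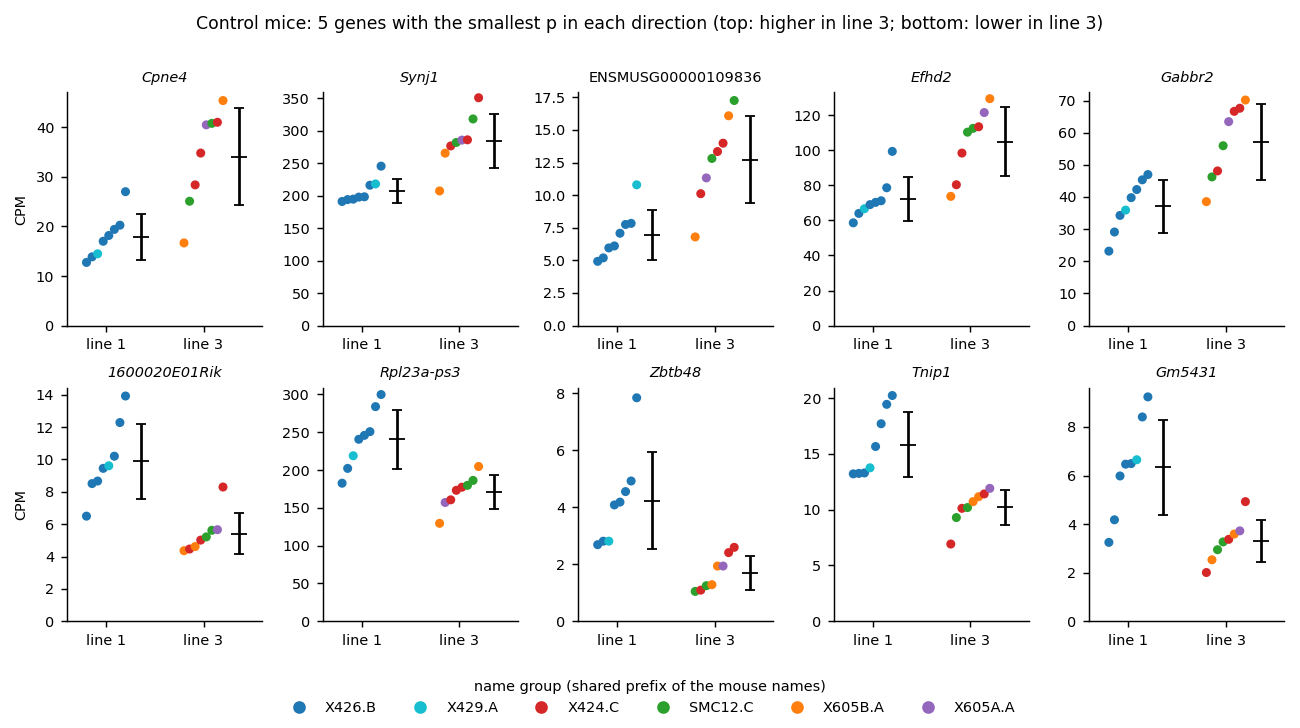
Level in CPM (y axis, linear, from 0) of the 10 genes with the smallest p in either direction, for each Control mouse of line 1 and line 3. Points are mice coloured by name group and ordered by value, and the bar beside them is the mean with SD (n = 8 per line). Zbtb48 and Tnip1 are the 2 genes whose groups do not overlap.

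The remaining gene of this set, Rpl23a-ps3, is a processed pseudogene of the ribosomal protein gene Rpl23a. It lies on chromosome 14 at 34170655 to 34171122 (plus strand), while Rpl23a lies on chromosome 11 at 78180932 to 78183584 (minus strand). Over its 468 bases the pseudogene differs from the Rpl23a transcript at 1 base, A116T, where the base of Rpl23a stands first and positions are counted from 1 at the first base of the pseudogene. The stretch around that base, bases 56 to 176, is shown from the GENCODE transcripts of GRCm38 with the differing base in capitals, because reads elsewhere in the pseudogene fit both copies.
Rpl23a-ps3: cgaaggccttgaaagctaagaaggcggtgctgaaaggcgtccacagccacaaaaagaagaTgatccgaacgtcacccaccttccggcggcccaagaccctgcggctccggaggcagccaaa
Rpl23a: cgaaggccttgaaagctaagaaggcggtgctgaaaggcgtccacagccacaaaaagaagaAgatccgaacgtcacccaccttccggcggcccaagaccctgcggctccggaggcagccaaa
Rpl23a-ps3 was at 130 to 205 CPM in line 3 (median 175) and 183 to 300 CPM in line 1 (median 243), a log2 difference of -0.48 (standard error 0.11, adjusted p = 0.639 in edgeR). Rpl23a went the other way, at 122 to 333 CPM in line 3 (median 162) and 98.1 to 195 CPM in line 1 (median 149), a log2 difference of 0.28 (standard error 0.17). Summed within each mouse, the 2 genes were at 349 ± 54.0 CPM in line 3 and 387 ± 28.5 CPM in line 1 (SD, n = 8 each). A two-sided exact permutation test of the difference of mean CPM gave p = 0.000777 for the pseudogene, p = 0.276 for Rpl23a and p = 0.102 for the sum. The 2 copies share almost all of their sequence, and base 116 of 468 lies far from the 3′ end that QuantSeq reads. How many reads covered it is not known here. The split of reads between the copies is therefore uncertain and may come from how shared reads were allocated.

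DESeq2 called 16 genes at an adjusted p under 0.05, 15 higher and 1 lower in line 3, and all 16 were among the 121 genes above. The lower gene was Rpl23a-ps3 (adjusted p = 0.0335 in DESeq2), whose reads cannot be split with certainty from those of Rpl23a. Synj1 (adjusted p = 0.0303), Efhd2 and Gabbr2 (both 0.0484) were described above. Those of the other 12 described here are named because DESeq2 called them. Syt1, the calcium sensor for fast transmitter release, was at 1062 to 1550 CPM in line 3 (median 1388) and 899 to 1338 CPM in line 1 (median 1047), a log2 difference of 0.37 (standard error 0.10, exact permutation p = 0.00202). Ncald, the neuronal calcium sensor neurocalcin delta, was at 198 to 403 CPM (median 347) against 135 to 312 CPM (median 205), with a log2 difference of 0.62 (standard error 0.17, exact permutation p = 0.00575). In both genes the median of line 3 lay above the highest line 1 mouse, and the ranges overlapped. Olfm1, a secreted glycoprotein of neurons, had a median of 472 CPM in line 3 and 268 CPM in line 1 (log2 difference 0.84, exact permutation p = 0.00793). Dkk3, a secreted protein related to Wnt inhibitors, had medians of 52.7 and 34.8 CPM (log2 difference 0.98, exact permutation p = 0.00186).

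Ppm1e, a phosphatase acting on calcium/calmodulin-dependent kinases, was at 20.7 to 120 CPM in line 3 and 14.6 to 34.2 CPM in line 1 (log2 difference 1.03, exact permutation p = 0.00948). St6galnac5, a sialyltransferase, was at 34.4 to 143 CPM against 29.3 to 53.4 CPM (log2 difference 0.86, exact permutation p = 0.00575). Schip1, Cdk14, Ccnd1, Miat and Fam81a had log2 differences of 0.62, 0.63, 0.56, 0.84 and 0.73. The highest line 3 value of St6galnac5, 143 CPM, was in mouse X424.C2, which also had 120 CPM of Ppm1e. In the X424.C mice against the other 5 line 3 mice, Ppm1e differed by 1.11 and St6galnac5 by 0.86 on the log2 scale, and Syt1 by 0.09. Without X426.B2 and X426.B6, Syt1, Ncald, Ppm1e and St6galnac5 had line differences of 0.33, 0.47, 0.90 and 0.77 and were no longer at p under 0.005 in edgeR.

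In 9 genes (0.0509%) no line 3 mouse reached the range of line 1, with 3 higher and 6 lower in line 3. Beside Zbtb48 and Tnip1 these were, named after their values were seen, Erbb4, Gm26753, Atrip, Stx4a, Sema3f, Hmgcs1 and Usp48. Ranges that do not overlap fix the exact permutation p at its lowest possible value, 0.000155. For genes picked by that separation the p is therefore no further support. Erbb4, the neuregulin receptor found in interneurons, was at 17.8 to 29.1 CPM in line 3 and 10.4 to 16.8 CPM in line 1 (log2 difference 0.58, standard error 0.14, exact permutation p = 0.000155). Hmgcs1, an enzyme of cholesterol synthesis, was at 263 to 332 CPM in line 3 and 216 to 260 CPM in line 1 (log2 difference 0.26, standard error 0.08, exact permutation p = 0.000155). Stx4a, a syntaxin of the plasma membrane, was at 18.9 to 25.0 CPM in line 3 and 25.8 to 38.9 CPM in line 1 (log2 difference -0.43, exact permutation p = 0.000155). Usp48, a ubiquitin protease, was at 64.2 to 82.3 CPM in line 3 and 82.8 to 102 CPM in line 1 (log2 difference -0.28, exact permutation p = 0.000155). Separation of the ranges thus went with small as well as large differences.

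Cell type and region markers came next, since a punch of the BLA can take in its neighbours. In bulk tissue, fewer cells of a type and less RNA per cell cannot be told apart. Each list below is given by its count of positive log2 differences and its median, beside a median of 0.01 over all genes. Its genes at p under 0.05 are read against 3.65% of all genes higher and 2.43% lower.

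Markers of basolateral principal neurons were mostly higher in line 3. Of 12 genes, 10 had a positive log2 difference, with a median of 0.56, and 4 were higher at p under 0.05 while 0 were lower. Neurod6, a transcription factor of glutamatergic neurons, was at 18.6 to 126 CPM in line 3 (median 42.2) and 0.351 to 48.9 CPM in line 1 (median 15.1), a log2 difference of 1.62 (standard error 0.52, exact permutation p = 0.00482). Neurod2, of the same family, was at 19.6 to 116 CPM (median 44.2) against 2.10 to 43.0 CPM (median 19.6), with a log2 difference of 1.31 (standard error 0.47, exact permutation p = 0.0174). For Neurod6 all 8 line 3 mice lay above the line 1 mean. Rspo2, a Wnt agonist that marks a class of these neurons, had a log2 difference of 1.26 (exact permutation p = 0.00591), and Camk2a, the kinase abundant in excitatory neurons, had 0.29 (exact permutation p = 0.0643). The summed level of the 12 genes overlapped widely, with medians of 3379 CPM in line 3 and 3029 CPM in line 1. The lowest line 1 values of Neurod6 and Rspo2 were those of X426.B2 and X426.B6. For Neurod2, X426.B4 (4.22 CPM) was as low as X426.B6 (4.25 CPM). Without X426.B2 and X426.B6, Neurod6 was at 11.2 to 48.9 CPM in line 1, with a log2 difference of 1.22. The median of the list was then 0.34 (9 of 12 positive). The median was 0.58 without the X424.C mice, 0.29 without the SMC12.C mice and 0.45 without the X605 mice. With age added it was 0.43, with 7 of 12 positive. Among the 9 genes with at least 10 reads in every mouse it was 0.27, with 7 positive. The lowest log2 difference of the list was that of Nrgn, at -0.20.

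Striatal projection neuron markers were lower in line 3, all 11 with a negative log2 difference and a median of -0.62, and 1, Gng7, at p under 0.05. Drd2, the marker of the list that was not tested, had at most 15 reads in any of the 31 mice and 0 in 20. Ppp1r1b, which encodes DARPP-32, was at 127 to 2012 CPM in line 3 (median 762) and 945 to 1538 CPM in line 1 (median 1265), a log2 difference of -0.67 (standard error 0.35, exact permutation p = 0.0244). Drd1, a dopamine receptor, was at 9.63 to 302 CPM in line 3 (median 115) and 139 to 233 CPM in line 1 (median 189), with a log2 difference of -0.62 (exact permutation p = 0.0334). Gng7, a G protein subunit that couples such receptors, was at 63.7 to 342 CPM against 212 to 321 CPM (log2 difference -0.58, exact permutation p = 0.026). Ppp1r1b and Drd1 had a p over 0.05 in edgeR. Line 1 mice were alike and line 3 mice spread on both sides of them. The summed level of the 11 genes ran from 3468 to 5072 CPM in line 1, while in line 3 it was 352 CPM in X424.C2, 1067 CPM in X424.C1, 2258 CPM in X605B.A7, 2426 CPM in SMC12.C4, 3365 CPM in X605A.A4, 3493 CPM in X424.C3, 3709 CPM in SMC12.C3 and 6371 CPM in X605B.A3. The median log2 difference of the list was -0.24 without the X424.C mice, -1.42 without the X605 mice, -0.69 without the SMC12.C mice and -0.61 without X426.B2 and X426.B6. It was -0.09 with 2 surrogate variables added, -1.53 with age added and 0.04 in the additive fit of all 31 mice, so its size and, in the last fit, its sign depended on the mice and terms used.

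Choroid plexus and ependymal markers, which come from the ventricle wall, had a median log2 difference of 1.26, with 6 of 7 genes positive. Ttr, the transport protein made by the choroid plexus, was at 13.2 to 8163 CPM in line 3 (median 1093) and 30.9 to 3759 CPM in line 1 (median 101), a log2 difference of 2.30 (standard error 1.14, exact permutation p = 0.404). Folr1, a folate receptor of the same tissue, had a log2 difference of 2.03 (exact permutation p = 0.292). The highest summed levels were 8360 CPM in X424.C2 and 6083 CPM in X424.C1 of line 3, but 4188 CPM in X605B.A7 and, in line 1, 3895 CPM in X426.B6 were also far above the lowest mouse at 24.3 CPM. Without the X424.C mice the median was 0.24 over 6 genes, and with 2 surrogate variables it was -0.08. Mice X424.C1 and X424.C2 thus had the lowest striatal and the highest choroid sums of the Control mice, together with the highest sums of hippocampal markers (736 and 952 CPM against 324 to 549 CPM in the other 14 mice).

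**Figure D2:**
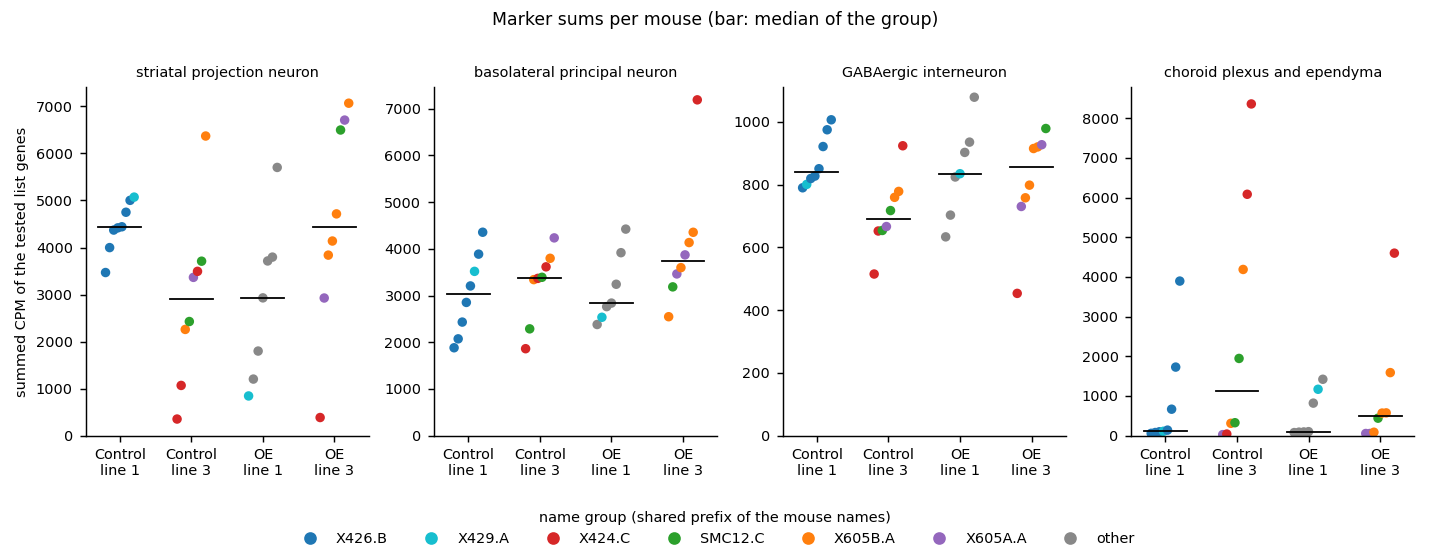
Summed CPM (y axis, linear, from 0) of 4 marker lists in each of the 31 mice by group, with points coloured by name group, grey for name groups without Control mice and a bar at the group median. Line 1 Control mice lie between 3468 and 5072 CPM for the striatal list, and line 3 Control mice between 352 and 6371 CPM.

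All 8 thalamic markers had a positive log2 difference (median 0.34), among them Slc17a6, a vesicular glutamate transporter, at 0.85 (exact permutation p = 0.0755). The median was -0.06 without the X424.C mice. Hippocampal markers had a median of 0.38 (5 of 6 positive), but -0.07 (1 of 5 positive) without the X424.C mice and -0.11 (1 of 6 positive) with 2 surrogate variables. Markers of cortex, claustrum and piriform cortex had 0.20 (6 of 7 positive), but -0.02 without the X605 mice and -0.15 with age added. Markers of the central and intercalated amygdala had -0.29 (1 of 9 positive), but 0.32 with age added, and the 3 hypothalamic markers tested had -0.39 (0 positive), but 0.38 in males alone.

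GABAergic interneuron markers were divided. Slc32a1, the vesicular GABA transporter, was at 67.9 to 209 CPM in line 3 (median 158) and 194 to 245 CPM in line 1 (median 228), a log2 difference of -0.52 (standard error 0.14, exact permutation p = 0.00109). All 8 line 3 mice lay below the line 1 mean. Gad2, which makes GABA, was at 59.5 to 169 CPM against 111 to 184 CPM (log2 difference -0.37, exact permutation p = 0.0441), and Pvalb, a calcium buffer of fast-spiking interneurons, had -0.74 (exact permutation p = 0.111). Vip, a peptide of another interneuron class, had a positive difference of 0.87 (exact permutation p = 0.124). Over the 12 genes, 5 were positive, the median was -0.20, and 1 was higher and 4 lower at p under 0.05. Slc32a1 and Gad2 are expressed in striatal neurons too, and the mouse with the lowest Slc32a1, X424.C2, was the mouse with the lowest striatal sum. The part of the striatal signal in these differences was not tested.

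Among glial and vascular markers, microglial genes were mostly lower in line 3: 10 of 11 had a negative log2 difference (median -0.19), and 3 were lower at p under 0.05: Itgam, an integrin subunit, at -0.74 (exact permutation p = 0.00963), Csf1r, the receptor for a survival factor of these cells, at -0.27 (exact permutation p = 0.00808), and C1qa, a complement subunit, at -0.28 (exact permutation p = 0.0261). Csf1r was at 37.4 to 53.2 CPM in line 3 and 43.9 to 65.4 CPM in line 1, with all 8 line 3 mice below the line 1 mean. Myelin genes had a median of -0.21 with 1 of 15 positive and 0 at p under 0.05. It was -0.49 without X424.C1, -0.04 in males alone, -0.04 without X426.B2 and X426.B6, and 0.04 with 2 surrogate variables, and the highest myelin sum of the Control mice, 9532 CPM, was in X424.C1 of line 3. Astrocyte markers had a median of 0.03, oligodendrocyte precursor and differentiation markers -0.11, endothelial and mural markers -0.17 and red blood cell markers -0.03. The 5 meningeal fibroblast markers had a median of 0.62, but 0.19 without the X424.C mice and -0.13 with 2 surrogate variables.

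**Figure D3:**
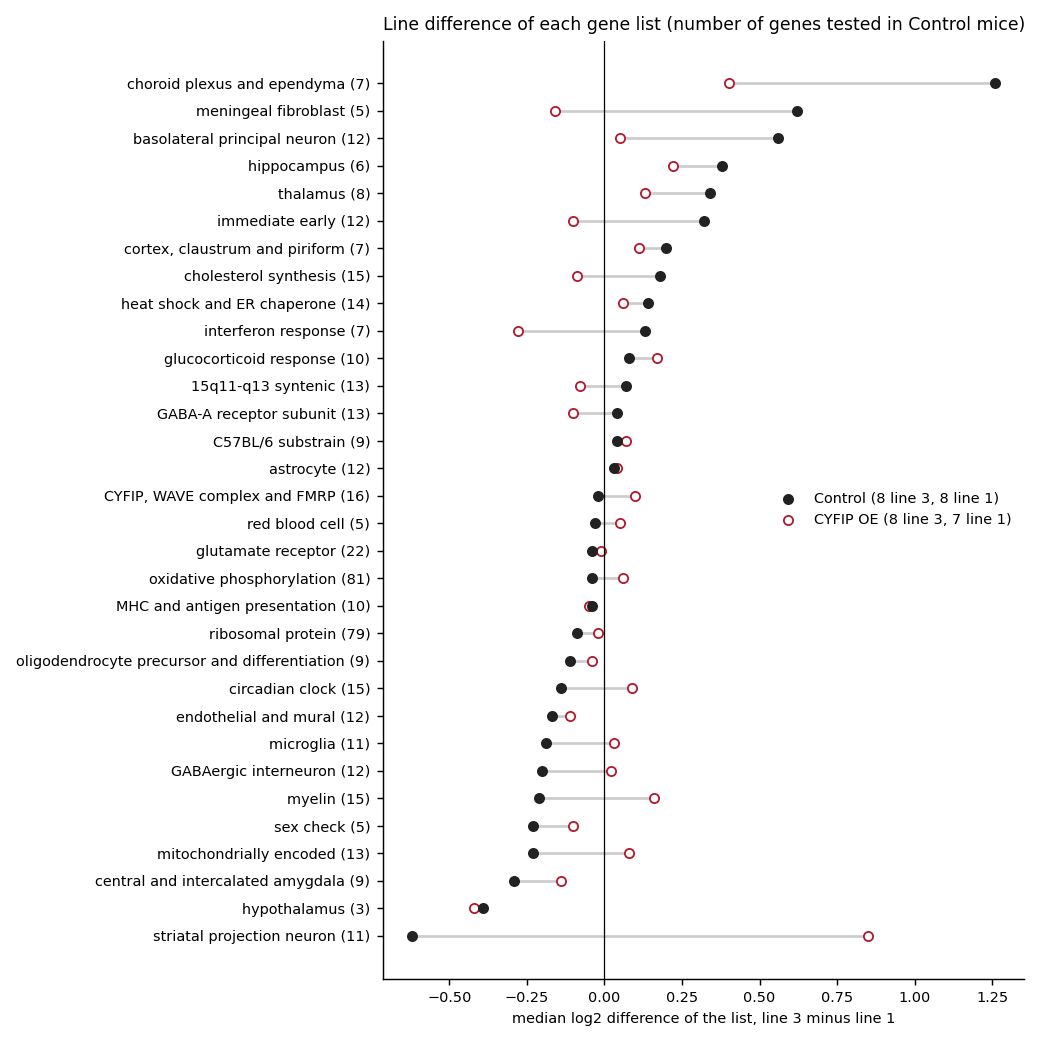
Median log2 difference of line 3 minus line 1 (x axis) for each of 32 gene lists, filled for Control mice and open for CYFIP OE mice, with the number of genes tested in brackets. Striatal projection neuron markers sit at -0.62 in Control mice and at 0.85 in CYFIP OE mice, and basolateral principal neuron markers at 0.56 and 0.05.

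Immediate early genes, which are switched on within minutes of neuronal firing, were mostly higher in line 3, 11 of 12 with a positive log2 difference and a median of 0.32. Fos, a transcription factor used as a marker of recently active neurons (chromosome 12, 85473890 to 85477273), was at 4.91 to 13.7 CPM in line 3 (median 10.1) and 3.55 to 6.99 CPM in line 1 (median 5.54). The log2 difference was 0.89 (standard error 0.22, exact permutation p = 0.0028), and 7 of 8 line 3 mice lay above the line 1 mean. It was the only list member at p under 0.05. Nr4a1, Btg2, Ier2 and Npas4 had log2 differences of 0.40, 0.59, 0.87 and 0.50, and Egr1, the gene of the list with the most reads, had -0.06. The median of the list was 0.09 in males alone and 0.53 in females alone.

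The 250 bases before the start of Fos are shown from RefSeq (GRCm38.p6, plus strand, chr12:85473640-85473889) because the cyclic AMP response element in them is a textbook switch of activity-driven transcription. Capitals mark TGACGT, the core of that element, and TATAAA, the TATA box.
Fos: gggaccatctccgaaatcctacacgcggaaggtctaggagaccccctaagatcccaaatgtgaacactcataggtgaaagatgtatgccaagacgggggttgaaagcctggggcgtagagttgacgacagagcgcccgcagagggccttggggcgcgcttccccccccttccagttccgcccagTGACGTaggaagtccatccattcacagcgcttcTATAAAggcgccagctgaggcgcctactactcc
Searched on both strands, TGACGT occurred in 6.47% of 32851 promoter windows. Of the 12 immediate early genes 9 had a window, and 6 of them held it (Btg2, Dusp1, Egr2, Egr4, Fos and Npas4). TATAAA occurred in 12.4% of windows and in that of Fos among the 9. The 2 motifs share no position in the Fos window, and a match is a description of letters, not of binding.

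Among stress and metabolic lists, heat shock and ER chaperone genes had a median of 0.14 with 12 of 14 positive. Hspa1b, an inducible Hsp70, was at 1.17 to 13.2 CPM in line 3 (median 3.35) and 0 to 3.11 CPM in line 1 (median 1.00), with a log2 difference of 2.06 (standard error 0.67, exact permutation p = 0.00575). Cholesterol synthesis genes had a median of 0.18 (0.11 without X426.B2 and X426.B6 and 0.03 in the additive fit of all 31 mice) with 12 of 15 positive, and 4 were higher at p under 0.05 while 0 were lower. Among them were Hmgcs1, described above, squalene epoxidase Sqle (0.35, exact permutation p = 0.0211) and lanosterol synthase Lss (0.45, exact permutation p = 0.0308). The summed level of the 15 genes was 687 to 803 CPM in line 3 and 586 to 707 CPM in line 1. The 13 genes encoded by the mitochondrial genome were all lower in line 3, with a median of -0.23 (-0.47 without the X605 mice and -0.09 in females alone) and a range of -0.31 to -0.16, and mt-Nd1, a subunit of complex I, was at p under 0.05 (-0.25, exact permutation p = 0.0387). Most of the 13 are cut from 1 precursor RNA, and their summed levels of 36790 to 65660 CPM in line 3 overlapped with 47320 to 72120 CPM in line 1. Nuclear genes of oxidative phosphorylation had a median of -0.04 over 81 genes and ribosomal protein genes -0.09 over 79, of which 16 were positive. Glucocorticoid response genes had a median of 0.08 and circadian clock genes -0.14 (2 of 15 positive, with Per2, a clock repressor, at 0.34, exact permutation p = 0.0648).

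Immune lists were near the median of all genes. MHC and antigen presentation genes had a median of -0.04, and interferon response genes 0.13, but -0.29 without the X424.C mice. H2-K1, a class I MHC gene (chromosome 17, 33996017 to 34000347), was at 4.05 to 10.8 CPM in line 3 (median 8.67) and 9.64 to 19.2 CPM in line 1 (median 11.8), a log2 difference of -0.65 (standard error 0.17, exact permutation p = 0.00109). All 8 line 3 mice lay below the line 1 mean. Class I genes are close copies of each other, and how their shared reads were divided is not known here.

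Cyfip1 itself did not differ detectably between the colonies. The mouse gene (chromosome 7, 55841745 to 55932602) was at 27.8 to 39.1 CPM in line 3 (median 35.8) and 23.2 to 38.9 CPM in line 1 (median 31.6). The log2 difference was 0.15 (95% confidence interval -0.09 to 0.39, exact permutation p = 0.143), so a difference of up to 0.39 was within the error. Cyfip2, its paralogue, had -0.07 (-0.29 to 0.15). Of 16 genes of the WAVE complex and the FMRP partners of CYFIP1, 7 were positive, the median was -0.02 and 1 was at p under 0.05. That was Wasf2, a WAVE protein, at 6.35 to 13.8 CPM in line 3 and 9.64 to 18.6 CPM in line 1 (log2 difference -0.49, exact permutation p = 0.0073). Genes of the mouse region that matches human 15q11-q13 had a median of 0.07 over 13 genes, and 2 were at p under 0.05, both higher. The first, Gabra5, a GABA-A receptor subunit, was at 16.8 to 89.9 CPM in line 3 (median 27.2) and 15.6 to 28.4 CPM in line 1 (median 19.8), a log2 difference of 0.81 (exact permutation p = 0.0385), and its highest value was in X424.C2. The second, Tubgcp5, a component of the gamma-tubulin complex, had 0.40 (exact permutation p = 0.035). GABA-A receptor subunits had a median of 0.04 over 13 genes and glutamate receptors -0.04 over 22.

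Genes that differ between C57BL/6 substrains were examined because colonies can drift or carry another substrain. The list holds Nnt, Crb1, Cyfip2, Gabra2, Wdfy1, Entpd4, Entpd4b, Ide and Nlrp12, which carry known substrain variants or expression differences, and none of the 9 was at p under 0.05. Nnt, a mitochondrial transhydrogenase that is partly deleted in C57BL/6J, was at 10.7 to 19.4 CPM in line 3 (median 17.7) and 10.2 to 22.3 CPM in line 1 (median 15.6), a log2 difference of 0.04 (95% confidence interval -0.28 to 0.36). Wdfy1 was at 23.5 to 46.6 CPM against 27.3 to 38.7 CPM, with a log2 difference of -0.05 (-0.30 to 0.20). Gabra2, a GABA-A receptor subunit, had 0.13 (-0.16 to 0.43). No mouse of either line stood at 0 for Nnt, Wdfy1 or Gabra2. Counts of 3′ ends cannot show a variant that leaves the amount of RNA unchanged, so the substrain of a line cannot be read from these values. Crb1, Nlrp12, Entpd4 and Entpd4b were low, with the widest intervals, and Entpd4 and Entpd4b had identical values in every mouse, as copies that share reads.

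**Figure D4:**
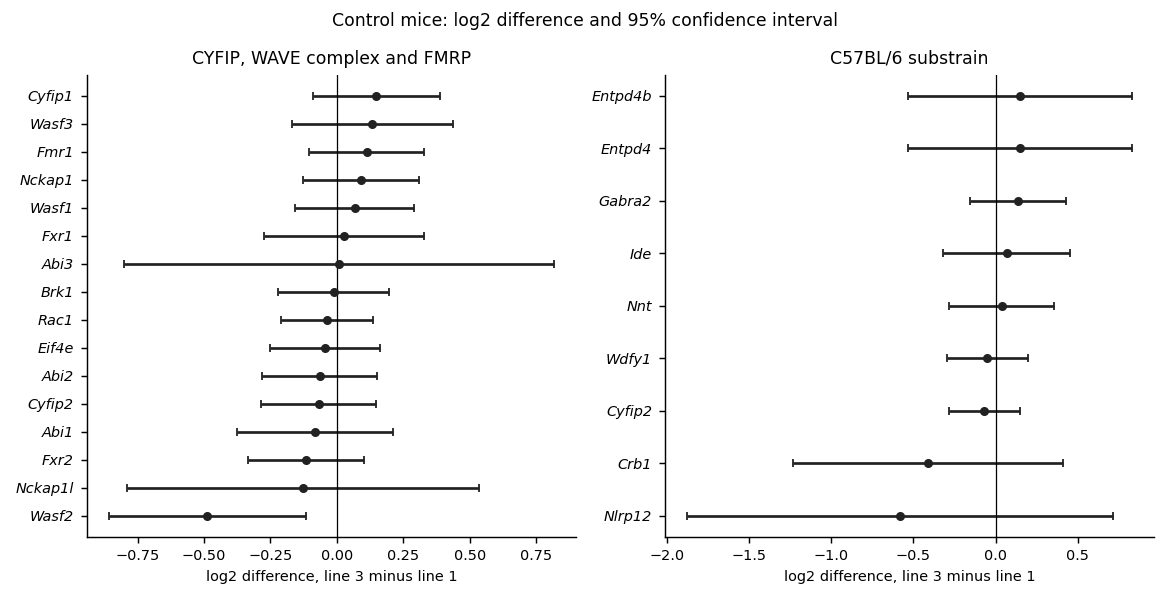
Log2 difference of line 3 minus line 1 in Control mice (x axis) with its 95% confidence interval for 16 genes of the CYFIP, WAVE and FMRP list and 9 genes of the substrain list. Wasf2, at -0.49, is the gene whose interval does not include 0.

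By chromosome, the share of genes at p under 0.005 ran from 0.0994% on chromosome 6 to 1.67% on chromosome 14 among the autosomes, where 9 of 538 tested genes fell. Within spans of 3 megabases, the most genes of 1 direction lay on chromosome 9 between 106432981 and 109074124, where 5 genes were lower in line 3, a stretch chosen after its values were seen. Acy1, an aminoacylase, had a log2 difference of -0.66, Gm37612, a transcript within an intron of Dcaf1, -0.79, Sema3f, an axon guidance ligand, -0.78, Pfkfb4, an enzyme that regulates glycolysis, -0.72, and Atrip, a partner of the DNA damage kinase ATR, -0.65. Sema3f was at 1.64 to 5.75 CPM in line 3 and 6.46 to 7.75 CPM in line 1, and Atrip at 5.32 to 11.2 CPM against 11.8 to 19.9 CPM, so neither overlapped. The other genes of the stretch did not share the direction, since 47 of all 90 tested there were lower and their median was -0.03. In CYFIP OE mice the 5 log2 differences were 0.20, 0.35, 0.55, -0.36 and -0.16.

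The line difference was then measured in the CYFIP OE mice, which share no mouse with the Control comparison. Line 1 held mice aged 77 days there and line 3 none over 64 days, so line and age are confounded in this fit. In line 3 both genotypes came from the same 4 name groups, and in line 1 they shared only X429.A. In CYFIP OE mice 0 of 16780 genes passed an adjusted p under 0.05 (smallest 0.761), and 86 (0.513%) had a p under 0.005, 35 higher (0.209%) and 51 lower (0.304%) in line 3. At p under 0.005 there were 24 genes without the mice aged 77 days. Without X424.C4, which had a connectivity Z-score of -4.69 among the 31 mice, there were 194. The study's methods remove samples with a Z-score under -2, a rule that the main fits here did not apply. Of the 121 genes of the Control comparison, 117 had a value in CYFIP OE mice and 34 of these (29.1%) had the same sign, against 7195 of 16486 genes (43.6%) overall. Among genes higher in line 3 Control mice 15 of 79 kept the sign, with a median log2 difference in CYFIP OE mice of -0.20, and among the lower genes 19 of 38 did. At p under 0.005 in both, 0 genes had the same sign and 2 had opposite signs, Ccnd1 and Col25a1. In CYFIP OE mice Cpne4 had a log2 difference of -0.06 (exact permutation p = 0.844), Synj1 -0.19 (0.28) and Gabbr2 -0.37 (0.286). Tnip1 had -0.01 there.

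**Figure D5:**
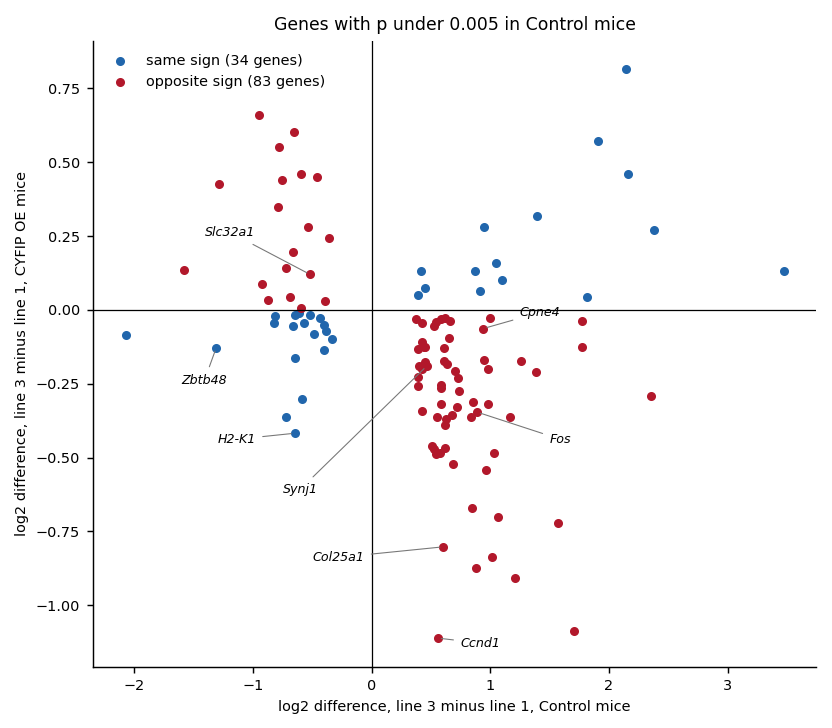
Log2 difference of line 3 minus line 1 in Control mice (x axis) and in CYFIP OE mice (y axis) for the 117 genes with p under 0.005 in Control mice and a value in both. Blue points, 34 genes, have the same sign in both genotypes, and red points, 83 genes, have opposite signs.

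List medians in the 2 genotypes stood as follows, with no test between them. Striatal markers, with a median of -0.62 in Control mice, had 0.85 in CYFIP OE mice with 11 of 11 positive. In that genotype the striatal sum was 384 to 7069 CPM in line 3 and 843 to 5703 CPM in line 1. Slc17a7, the marker nearly absent from X426.B2, ran from 25.0 to 1070 CPM in line 3 and from 20.7 to 421 CPM in line 1. The 1070 CPM was in X424.C4, the mouse with the connectivity Z-score of -4.69, and the next highest line 3 mouse, X605B.A5, was at 371 CPM. Basolateral principal neuron markers had 0.05 in CYFIP OE mice, immediate early genes -0.10, myelin genes 0.16, mitochondrially encoded genes 0.08 and cholesterol synthesis genes -0.09. Choroid plexus markers kept their sign (0.40), and so did several other lists. Among these were thalamic (0.13), hippocampal (0.22), cortex, claustrum and piriform (0.11), hypothalamic (-0.42) and central and intercalated amygdala markers (-0.14). Microglial markers, with a median of -0.19 in Control mice, had 0.03 in CYFIP OE mice. GABAergic interneuron markers had -0.20 and 0.02.

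A test of the interaction, the line difference in CYFIP OE mice minus that in Control mice, was fitted over all 31 mice and 18840 genes. No gene passed an adjusted p under 0.05 (smallest 0.193), and 153 genes (0.812%) had a p under 0.005, 64 positive (0.34%) and 89 negative (0.472%). Without X424.C4 there were 359 genes at p under 0.005. The smallest p in edgeR belonged to Ccnd1, cyclin D1, a regulator of entry into the cell cycle (chromosome 7, 144929931 to 144939925). In Control mice it was at 44.7 to 88.8 CPM in line 3 (median 54.4) and 25.9 to 55.1 CPM in line 1 (median 37.6), a log2 difference of 0.56 (standard error 0.14, exact permutation p = 0.00715). In CYFIP OE mice it was at 24.2 to 55.4 CPM in line 3 (median 31.7) and 31.5 to 148 CPM in line 1 (median 75.8), a log2 difference of -1.11 (standard error 0.27, exact permutation p = 0.00637). The interaction was -1.65 (standard error 0.32, adjusted p = 0.193 in edgeR). Sqle was next, with 0.35 in Control mice, -0.66 in CYFIP OE mice and an interaction of -0.99 (standard error 0.22). The 4 CYFIP OE mice of line 1 aged 77 days have no Control mouse and no line 3 mouse of their age. Age can be told apart from neither genotype nor line in them.

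Mice of 1 line that differ in name group were also compared, for X424.C only, which holds X424.C1 (connectivity Z-score -2.37). The 3 Control mice of X424.C were compared with the 5 other Control mice of line 3, over 18246 genes. Genes needed 10 reads in 2 or more of these mice. With this filter and fewer, unequal mice, the counts are not like for like with those of the line comparison. Leaving out 1 of the 3 X424.C mice gave from 63 to 552 genes at p under 0.005. No gene passed an adjusted p under 0.05 (smallest 0.123, 0%), and 173 genes (0.948%) had a p under 0.005, 97 higher (0.532%) and 76 lower (0.417%) in X424.C. At p under 0.05 there were 1442 genes (7.9%), with 3.87% of genes higher and 4.03% lower. Striatal markers had a median of -1.52 (11 of 11 negative, 7 at p under 0.05), choroid plexus markers 1.92 (7 of 7 positive) and hippocampal markers 1.23 (5 of 6 positive, all 5 at p under 0.05). Drd1 differed by -1.87 on the log2 scale. Basolateral principal neuron markers were divided, with 6 of 12 positive, a median of -0.02, and 3 higher and 3 lower at p under 0.05. Neurod6, 1 of that list, differed by 1.09. Of the genes of the line comparison, 120 had a value here and 22 had a p under 0.05. Synj1 (log2 difference 0.16), Cpne4 (0.08) and Tnip1 (-0.20) were not among the 22.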

How the data were processed

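Members and gene lists were chosen with earlier results of these data known. Per mouse, the authors deposited a table of expected counts, made by Salmon from QuantSeq reads aligned to GRCm38 by STAR, with neither scaling nor a filter. The annotation release that the study's methods name is not one of mouse, so symbols and positions came from the GENCODE annotation of GRCm38 given here (48349 of 48709 identifiers named). The submitters' processing notes also name Picard and MultiQC.

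Expected counts were rounded to whole numbers. Genes with at least 10 reads in 4 or more of the mice compared were kept (2 or more within line 3). Lines were compared with edgeR 4.0.16 in R 4.3.3 (TMM normalization, quasi-likelihood F test, two-sided for 1 term, sex as covariate) with Benjamini-Hochberg adjustment over all genes tested, and the interaction was fitted over all 31 mice. An alternative added 2 surrogate variables (sva 3.50.0), because the alignment statistics behind the authors' covariates were not used here. CPM are TMM-normalized, with SDs over mice. Counting error limits genes with few reads, and depth was 6422037 to 8685308 counts per Control mouse. DESeq2 1.42.0 was an alternative, and single genes were also tested by exact permutation of mean log2 CPM, a test added after the data were seen. The steps were tested on simulated counts.

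Named by rule were the genes with an adjusted p under 0.05, filled up to 5 in each direction by the smallest p under 0.005, list genes with an adjusted p under 0.05, genes called in both genotypes, Cyfip1, the substrain list, Xist, Ddx3y and the smallest p of the interaction. All other genes were chosen after their values were seen, and some results are not reported here. The 32 lists were described by counts and medians only. Mice were grouped by the genotype and line labels, and name groups were used only in alternatives and in the X424.C comparison.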

Additional observations from a re-analysis of the deposited data

Results flagged for a closer look

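In 26 of 198 groups of 8 Control mice, over named genes and marker sums, 1 mouse lay farther from its nearest neighbour than Dixon's critical value of 0.526 for the gap as a share of the group's range, and chance flags about 1 in 20 groups. Many of the 198 share mice and move together.

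Mice of X424.C accounted for 11 of the 16 in line 3. X424.C2 was the high mouse for St6galnac5 (143 CPM, gap 0.596 of the range), Gabra5 (89.9 CPM, 0.598) and Neurod2 (116 CPM, 0.568) and the low mouse for Slc32a1 (67.9 CPM, 0.527). X424.C1 was the high mouse for Hmgcs1 (332 CPM, 0.564), Pvalb (91.6 CPM, 0.633) and the summed thalamic (295 CPM, 0.794), oligodendrocyte precursor (397 CPM, 0.581) and glucocorticoid response genes (331 CPM, 0.63). X424.C3 was high for 1600020E01Rik (8.30 CPM, 0.67) and low for Atrip (5.32 CPM, 0.637).

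The other line 3 mice flagged were X605B.A7 for Ccnd1 (88.8 CPM, 0.543), X605B.A3 for Ppp1r1b (2012 CPM, 0.53) and Rpl23a (333 CPM, 0.724), X605A.A4 for Cyfip1 (27.8 CPM, low, 0.601) and SMC12.C3 for Nlrp12 (2.74 CPM, 0.656).

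In line 1, X426.B6 was the high mouse for Zbtb48 (7.84 CPM, 0.566), Folr1 (23.6 CPM, 0.72), Ttr (3759 CPM, 0.562) and the summed meningeal (85.1 CPM, 0.723) and choroid plexus markers (3895 CPM, 0.565). X426.B7 was high for Syt1 (1338 CPM, 0.612) and H2-K1 (19.2 CPM, 0.547), X426.B5 for Crb1 (5.72 CPM, 0.615), X426.B4 for the summed thalamic markers (160 CPM, 0.663) and X426.B1 for the summed GABA-A receptor subunits (802 CPM, 0.567).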

How the results depend on the processing

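Against 121 genes at p under 0.005, other fits gave 195 with DESeq2, 340 with no filter on low counts, 421 with age added, 73 with 2 surrogate variables, 77 without the X424.C mice, 83 without X426.B2 and X426.B6 (an alternative chosen after the data were seen), 448 without the X605 mice, 23 in females alone, 38 in an additive fit of all 31 mice and 62 for the Control contrast of all 31 mice. Without the X424.C mice 38 of the 121 genes stayed under 0.005 and without the X605 mice 84 did, and 116 of 116 and 117 of 117 that could be fitted had the same direction. These fits share most of their mice with the first. At an adjusted p under 0.05 the numbers were 16 with DESeq2, 2 with no filter, 10 with age added and 34 without the X605 mice, and 0 in the other 14 alternatives. The cause was not tested. The 10 genes named by p had the same direction in 179 of 179 fits and a p under 0.005 in 135. Age differed by at most 3 days between Control mice, but the X426.B mice of line 1 were 61 days old and no line 3 mouse was. Age and line can thus hardly be told apart in the fit with age added.

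In CYFIP OE mice the numbers at p under 0.005 were 140 with DESeq2, 261 with no filter, 24 without the mice aged 77 days, 194 without the mouse under a connectivity Z-score of -2 (X424.C4) and 30 with age added, and at an adjusted p under 0.05 they were 4, 14 and 1 for DESeq2, no filter and without X424.C4. With no filter, 3 genes were called in both genotypes with the same sign. For the interaction, no filter gave 591 and leaving out X424.C4 gave 359 at p under 0.005, and DESeq2 and no filter gave 2 each at an adjusted p under 0.05. For X424.C against the other line 3 mice DESeq2 gave 348 and no filter 766 at p under 0.005, with 51 and 430 at an adjusted p under 0.05. Leaving out X424.C1, X424.C2 or X424.C3 gave from 63 (without X424.C2) to 552 (without X424.C3) at p under 0.005 and from 0 to 65 at an adjusted p under 0.05, and without X424.C1 there were 83 and 0.

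Directions reversed for 14 named genes. One of them, Ccnd1, is among the 121 genes and the DESeq2 calls, Sqle and Gng7 were at p under 0.05 and the other 11 were not. In the additive fit of all 31 mice, which averages over both genotypes, the log2 difference was -0.26 for Ccnd1, -0.13 for Sqle, 0.04 for Gng7 and Drd1, 0.22 for Adora2a, -0.05 for Gabra2 and 0.07 for Cyfip2. In females alone it was -0.02 for Cyfip1, 0.07 for Wdfy1 and -0.07 for Nnt, and in males alone 0.13 for Crb1, -0.18 for Entpd4 and Entpd4b and -0.14 for Ide. With 2 surrogate variables Gabra2 had -0.09 and Entpd4 and Entpd4b -0.01, and with age added Wdfy1 had 0.05. Without the X424.C mice Gabra2 had -0.03 and Nnt -0.09, and without the mouse under a connectivity Z-score of -2 Nnt had -0.04. Reads of Rpl23a and Rpl23a-ps3 summed, an alternative chosen after the data were seen, differed by -38.0 CPM against -69.5 CPM for the pseudogene alone.

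No paired analysis was possible because the labels give no pairing between mice of the 2 lines. Depth limits genes with few reads, and with 8 mice per line and 1 or more name groups per line a line difference holds for these colonies' sampled mice only.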

Other observations

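The genes given next are among the 121 at p under 0.005 and were picked after their values were seen, with no test of a theme. Dnm1, dynamin 1, which pinches synaptic vesicles from the membrane, was higher in line 3 by 0.44 on the log2 scale, Rims1, a protein of the release site, by 0.39, Homer2, a postsynaptic scaffold, by 0.58, and Dlgap1, another scaffold, by 0.55. Slit1, an axon guidance ligand, was higher by 1.16 and Nrp1, a semaphorin receptor, by 1.10, while Sema3f was lower by 0.78. Nrn1, a neuritin induced by activity, was higher by 1.26 and the orphan nuclear receptor Nr4a3 by 0.96. Pnoc, the precursor of nociceptin, was higher by 1.57, while Sp9 and Pbx3, transcription factors of striatal and other GABAergic neurons, were lower by 0.82 and 0.72. None had an adjusted p under 0.05 in edgeR, against 0.685% of all genes at this unadjusted threshold.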
